A study of Homo sapiens with 4 samples.

Results

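The polyamine pathway was described through 10 genes that make, break down or regulate putrescine, spermidine and spermine: ODC1, AMD1, SRM, SMS, SAT1, OAZ1, OAZ2, AZIN1, SMOX and PAOX. They were named as a set for their roles in the pathway, with earlier results of these data known, and were matched by gene identifier to 10 of the 60612 rows of the deposited count table, and all 10 passed the filter on low counts. The cells were IMR-32, an established human neuroblastoma line with amplified MYCN. RNA-seq of polyadenylated RNA covered 4 libraries, 2 named shControl and 2 named shNeuroD1 (a hairpin against NEUROD1). The treatment text given for all 4 samples speaks of stable hairpin transduction, with RNA interference switched on by doxycycline at 1 µg/mL for 48 h. The control libraries are named for a control hairpin, and the study's RNA-seq figures call this group shNC, its negative control. Their genotype is given as WT, however, and the design text and the study's methods speak of parental cells. They may therefore be untransduced cells. If so, effects of transduction and of NeuroD1 loss cannot be told apart. The study used 2 hairpins against NEUROD1, and the labels do not say which the shNeuroD1 libraries carry. The study's own names for these libraries point to 1 hairpin in both, in which case effects of that hairpin on other transcripts cannot be told apart from those of NeuroD1 loss. Whether libraries that share a group were grown as separate cultures is not stated, so every p-value measures only the spread between these libraries.

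Polyamines are small, positively charged molecules that bind nucleic acids and that dividing cells need in quantity. ODC1 (ornithine decarboxylase) makes putrescine from ornithine and is a classic transcriptional target of MYC proteins, which is why the pathway is followed in MYCN-amplified neuroblastoma. AMD1 makes the aminopropyl donor from S-adenosylmethionine, SRM adds it to putrescine to give spermidine, and SMS adds another to give spermine. Antizymes (OAZ1, OAZ2) bind ODC1 protein and send it to the proteasome, and antizyme inhibitor (AZIN1) binds antizymes in its place. On the breakdown side SAT1 acetylates spermidine and spermine, PAOX oxidises the acetylated forms, and SMOX oxidises spermine directly. Much of this regulation acts on protein stability and translation, which RNA-seq does not measure.

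The 4 libraries held between 14665210 and 16482463 counted reads. NEUROD1 stood at 419 and 414 CPM (the count scaled to library depth by the trimmed mean of M values) in shControl and at 63.7 and 58.2 CPM in shNeuroD1, 14.6% of the control mean. For MYCN the log2 fold change, -0.0073 with a standard error (SE) of 0.037, did not pass (edgeR adjusted p = 0.886), at 2025 and 1945 CPM in shControl and 1969 and 1980 CPM in shNeuroD1. With library size as the only scaling, which lifts all genes, it was 0.11 (adjusted p = 0.014). The summed level of 10 adrenergic neuroblastoma markers, none of them at 0, was 4195 to 4303 CPM in shControl and 3961 to 3988 CPM in shNeuroD1. For 10 mesenchymal or Schwann-like markers, of which PRRX1 was at 0, the sums were 109 to 118 CPM in shControl and 90.1 to 92.5 CPM in shNeuroD1. The 4 blood and endothelial markers summed to at most 0.263 CPM, with CD3E and HBA1 at 0. The share of counts from the mitochondrial genome was 4.37% to 4.59% in shControl and 5.39% to 5.51% in shNeuroD1. The part of these shifts in the results that follow was not tested. In bulk RNA, fewer cells expressing a gene and less RNA per cell cannot be told apart.

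In the shNeuroD1 libraries ODC1, OAZ1, SMOX and AMD1 fell, SMS, SAT1 and OAZ2 rose, and SRM, AZIN1 and PAOX did not pass the test. The log2 fold changes ran from -0.70 in ODC1 to 0.89 in PAOX with a median of 0.078, beside a median of 0.0084 over all 17537 genes tested. A gene was called at an edgeR adjusted p under 0.05, and at that threshold 28.2% of all genes tested were called lower and 26.8% higher. The 4 lower and 3 higher calls among 10 members are near these shares, and their number is no result about the pathway. By edgeR no called member reached a change of 1 on the log2 scale, a size that 13.9% of all genes tested passed together with the adjusted p. In 9 members the CPM values of the 2 groups did not overlap, as in 76.1% of all genes tested, and AZIN1 was the exception.

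**Figure D1:**
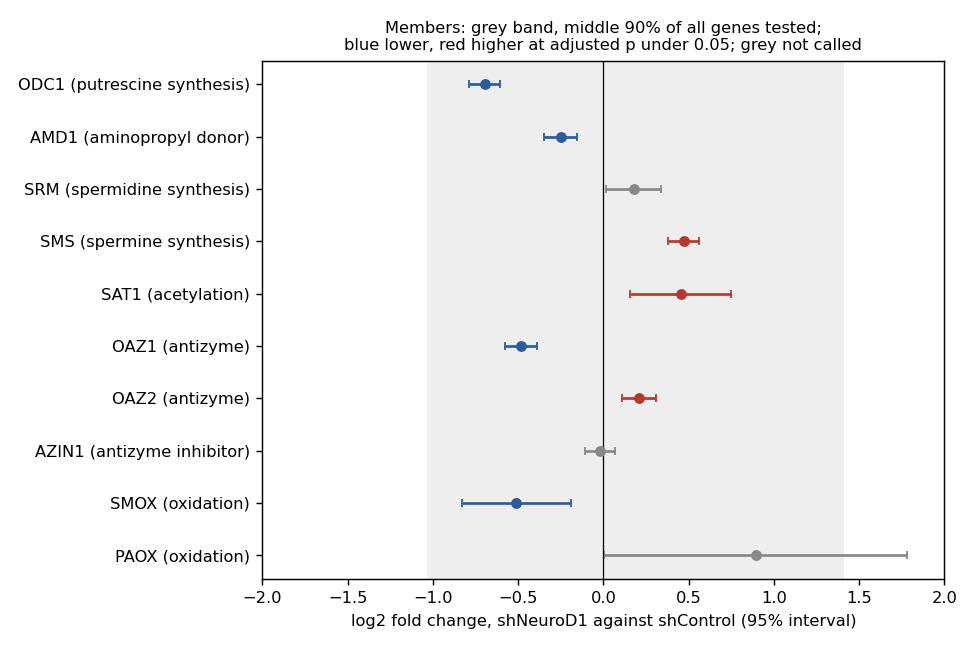
Log2 fold change of each of the 10 polyamine genes (x axis, shNeuroD1 against shControl) with its 95% interval from the edgeR fit, by gene and role (y axis). Blue marks genes called lower, red higher and grey not called, and the grey band holds the middle 90% of all genes tested. Every estimate lies inside the band, with ODC1 lowest at -0.70 and PAOX highest at 0.89.

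ODC1 carried the largest change among the called members. This gene (ENSG00000115758, chr2:10439968-10448504 on the minus strand, GRCh38) was counted 8032 and 7946 times in shControl and 4957 and 4857 times in shNeuroD1. Scaled to depth, the shControl libraries held 545 and 500.4 CPM and the shNeuroD1 libraries 326 and 319 CPM. Both shNeuroD1 libraries lay far below both shControl libraries, and the gap between them was wider than the range within either group. The means were 523 ± 31.5 and 322 ± 4.86 CPM (SD, n = 2), which put knockdown cells at 61.7% of the control mean. On the log2 scale this was a change of -0.70 (SE 0.044, 95% interval -0.79 to -0.61, edgeR adjusted p = 5.5e-15), and 9.58% of all genes tested had a lower value. The intronic snoRNA gene SNORA80B, which lies inside ODC1 on the same strand, had 4 to 14 counts per library. The 95% interval of the change in MYCN RNA, -0.083 to 0.069, lies far from that of ODC1. N-Myc protein is not measured by RNA-seq. The study reported that it fell after NeuroD1 knockdown while MYCN RNA did not change. From its transcriptome data, which are these same libraries, the study also counted ODC1 among the direct N-Myc targets that fell. It gave no threshold there, and ODC1 at -0.70 lies short of the log2 fold change of 1 in size used in its volcano plot. The part of N-Myc protein in the ODC1 change was not tested here.

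NeuroD1 and MYC proteins are basic helix-loop-helix factors that bind short E-box sequences, so the RefSeq promoter windows (GRCh38.p14, from 250 bases before to 50 bases after a start) of the members were searched for CACGTG, the E-box preferred by MYC proteins, and for CAGCTG and CAGATG, E-boxes of the neurogenic type. Both strands were searched, and matches of these 3 motifs cannot overlap one another. The search covered 7 members, with 10 windows in all. No window of AZIN1, SMOX or PAOX was searched, so whether their promoters hold these motifs was not tested. CACGTG occurs in 7.26% of 35116 human windows, and 0.664% hold it more than once. CAGCTG occurs in 17.9% and CAGATG in 14.7% of the windows. Counted by gene, over 27305 genes with any window, the shares are 8.77% for CACGTG, 21.1% for CAGCTG and 17.5% for CAGATG. The AMD1 windows that begin at chr6:110874534 and chr6:110874535 are nearly the same. The downstream ODC1 start had CACGTG at positions -29 and 5, counted from 0 at the start base, and the upstream ODC1 start had none of the 3 motifs. SRM had CACGTG at -199, AMD1 had CAGCTG at -234, and OAZ2 had CAGCTG at -181 and CAGATG at 3. SMS, SAT1 and OAZ1 had no match in their windows. A match is a description of the letters, and factor binding was not measured in these libraries. The study mapped NeuroD1 binding in IMR-32 cells by ChIP-seq in a separate experiment, which was not used here. The stretches around the matches are shown, with the motifs in capitals. They put the member that fell most beside others with an E-box in a window. The OAZ2 match at position 3 lies outside the printed stretch.

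ODC1, chr2:10448001-10448072, minus strand, -60 to 11: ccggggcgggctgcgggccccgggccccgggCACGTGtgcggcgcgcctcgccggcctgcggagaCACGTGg
SRM, chr1:11060178-11060248, minus strand, -230 to -160: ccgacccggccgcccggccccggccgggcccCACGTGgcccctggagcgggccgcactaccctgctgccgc
AMD1, chr6:110874535-110874595, plus strand, -250 to -190: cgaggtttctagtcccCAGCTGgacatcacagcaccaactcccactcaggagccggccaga
OAZ2, chr15:64703431-64703491, minus strand, -210 to -150: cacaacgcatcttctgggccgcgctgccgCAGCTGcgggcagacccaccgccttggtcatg

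Among the members searched, the 2 genes with CACGTG in a window did not move alike. The 95% interval of the log2 fold change was -0.79 to -0.61 for ODC1 and 0.016 to 0.34 for SRM, which did not pass the test. The 2 searched genes with CAGCTG were called in opposite directions, AMD1 lower and OAZ2 higher. In the deposited FPKM lists nearly all of the ODC1 signal came from transcripts starting at the upstream start (first exon chr2:10448121-10448327), with 149.9 and 131 FPKM in shControl and 94.2 and 92.5 FPKM in shNeuroD1. FPKM counts fragments by transcript length and library depth, and these values were not tested. On the minus strand both CACGTG matches of ODC1, within chr2:10448001-10448072, lie downstream of that first exon. The part of the motifs in the changes of these genes was not tested.

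The antizymes went in opposite directions. OAZ1 (ENSG00000104904, chr19:2269509-2273490, plus strand), the main antizyme, stood at 404 and 362 CPM in shControl and at 272 and 275 CPM in shNeuroD1. The groups did not overlap, and the level in knockdown cells was 71.5% of the control mean, or -0.48 on the log2 scale (SE 0.046, 95% interval -0.58 to -0.39, edgeR adjusted p = 1.2e-10). OAZ2 (ENSG00000180304, chr15:64687573-64703281, minus strand), another antizyme with a similar action on ODC1, stood at 132 and 141 CPM in shControl and at 159 and 157 CPM in shNeuroD1. It rose by a smaller step, a log2 fold change of 0.21 (SE 0.048, 95% interval 0.11 to 0.31, edgeR adjusted p = 0.00043). JSRP1, which overlaps the start of OAZ1 on the other strand, had 38 to 64 counts per library. A longer annotated gene that spans OAZ1 on its own strand, ENSG00000273734, had 0 counts, and the 3 antisense genes on OAZ2 had at most 14 counts each.

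Antizyme protein is made only when the ribosome shifts by a base at an early stop codon, a step that polyamines themselves promote. The coding sequence around that stop is shown for both antizymes, from GENCODE 29 transcripts on GRCh38, with the stop of the first reading frame in capitals.

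OAZ1, chr19:2271416-2271472, plus strand: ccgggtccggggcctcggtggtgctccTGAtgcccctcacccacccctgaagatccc
OAZ2, chr15:64691486-64691542, minus strand: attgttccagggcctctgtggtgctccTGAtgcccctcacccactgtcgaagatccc

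In these windows 47 of 57 bases are identical between OAZ1 and OAZ2. The shift site is thus shared by a gene that fell and a gene that rose, and the rate of shifting was not measured. The exon of OAZ2 that holds the site was included at 99.99% in all 4 libraries by the FPKM lists, and OAZ1 has no listed events there.

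AZIN1 (ENSG00000155096, chr8:102826357-102893864, minus strand), which frees ODC1 from antizymes, was the most even member. It stood at 304 and 301 CPM in shControl and at 294 and 302 CPM in shNeuroD1, with the groups overlapping. Its log2 fold change, -0.020 with an SE of 0.042, did not pass (edgeR adjusted p = 0.714), and the 95% interval of -0.11 to 0.066 bounds the change on either side. Scaling by library size alone gave 0.092 with an adjusted p of 0.059. That scaling lifts the median of all genes from 0.0084 to 0.12. The FPKM lists gave a different picture for AZIN1, 22.6 and 44.6 FPKM in shControl and 52.3 and 41.3 FPKM in shNeuroD1, with one shControl library far from the other although their counts were 4484 and 4778. An alternative exon of 146 bases was included at 18.3% and 23.7% in shControl and at 20.6% and 22.5% in shNeuroD1, so the groups overlapped there too. The antisense gene MAILR, which overlaps AZIN1, had 41 to 73 counts.

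**Figure D2:**
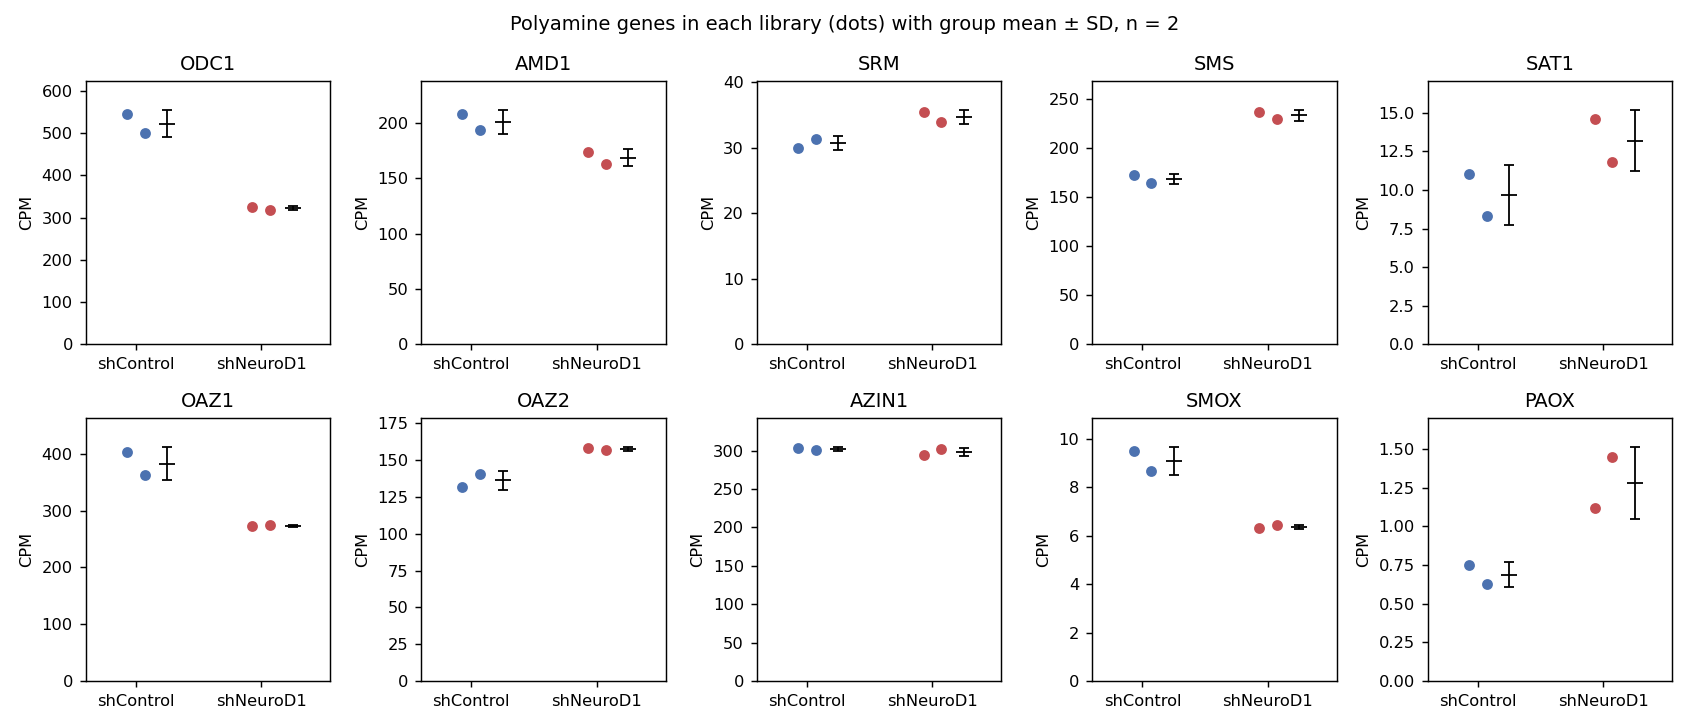
Level of each polyamine gene in CPM (y axes from 0, 1 panel per gene) in the 2 shControl and 2 shNeuroD1 libraries (dots), with the group mean and SD beside them. ODC1 drops from 545 and 500.4 to 326 and 319 CPM, SMS rises from 172 and 165 to 237 and 229.5 CPM, and the AZIN1 dots of the groups overlap.

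The enzymes that use putrescine or supply its aminopropyl groups did not all follow ODC1. AMD1 (ENSG00000123505, chr6:110874770-110895713, plus strand) fell by a smaller amount, from 208 and 193 CPM to 174 and 163 CPM, 84.0% of the control mean. The change was -0.25 in log2 units (SE 0.048, edgeR adjusted p = 4.5e-05). Without shControl replicate 1 the AMD1 value was -0.21 with an adjusted p of 0.054. SRM (ENSG00000116649, chr1:11054584-11060024, minus strand) stood at 29.9 and 31.4 CPM in shControl and at 35.4 and 34.0 CPM in shNeuroD1. The groups did not overlap, but the log2 fold change of 0.18 (SE 0.079, 95% interval 0.016 to 0.34) had an edgeR adjusted p of 0.058 and SRM was not called. It was called with library size scaling (0.29, adjusted p = 0.0024) and when genes under a mean of 1 CPM were left out (0.19, adjusted p = 0.039). SMS (ENSG00000102172, chrX:21940573-21994835, plus strand) rose from 172 and 165 CPM to 237 and 229.5 CPM, 139% of the control mean. With a log2 fold change of 0.47 (SE 0.045, 95% interval 0.38 to 0.56, edgeR adjusted p = 1.5e-10), SMS was the member that rose with the smallest p.

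The FPKM lists did not carry the SMS rise. Summed over starts, SMS had 76.6 and 62.2 FPKM in shControl and 52.1 and 95.4 FPKM in shNeuroD1, with the knockdown libraries on both sides of the controls. The counts of the same libraries were 2536 and 2614 in shControl and 3604 and 3495 in shNeuroD1, close within each group. SRM showed the same contrast between its 13.7 and 20.0 FPKM in shNeuroD1 and its 539 and 517 counts. ODC1, in comparison, had 149.9 and 131 FPKM against 94.3 and 92.5 FPKM, with groups apart in both kinds of file. In a limma fit of log2(FPKM + 1) no listed member was called, while 3 of 8 had an unadjusted p under 0.05, and ODC1 had a value of -0.58 with an adjusted p of 0.070. The same fit did not call NEUROD1, the targeted gene, either (-0.96, adjusted p = 0.291, against -2.77 in the counts).

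Among the catabolic genes, SAT1 rose and SMOX fell, both at low levels and with less certain calls. SAT1 (ENSG00000130066, chrX:23783173-23786226, plus strand), the rate-limiting acetyltransferase, was counted 163 and 132 times in shControl against 222 and 180 times in shNeuroD1, or 11.1 and 8.31 CPM against 14.6 and 11.8 CPM. The lower shNeuroD1 library was barely above the higher shControl library. On the log2 scale SAT1 changed by 0.45 (SE 0.146, 95% interval 0.16 to 0.75, edgeR adjusted p = 0.0091). The call was lost in DESeq2 (adjusted p = 0.090), without a filter on low counts (adjusted p = 0.111), and when shControl replicate 1 (0.66, adjusted p = 0.074), shControl replicate 2 (0.25, adjusted p = 0.350) or shNeuroD1 replicate 1 (0.29, adjusted p = 0.163) was left out. SMOX (ENSG00000088826, chr20:4120980-4187747, plus strand) was counted 140 and 138 times in shControl against 96 and 98 times in shNeuroD1, or 9.50 and 8.69 CPM against 6.31 and 6.44 CPM. Its log2 fold change was -0.51 (SE 0.157, 95% interval -0.83 to -0.19, edgeR adjusted p = 0.0065). For SMOX the call was lost in DESeq2 (adjusted p = 0.079) and without shControl replicate 1 (-0.46, adjusted p = 0.069). PAOX (ENSG00000148832, chr10:133379234-133391694, plus strand) was near the floor, with 11 and 10 counts in shControl against 17 and 22 in shNeuroD1. Its log2 fold change of 0.89 had a wide 95% interval, 0.0059 to 1.78, and an edgeR adjusted p of 0.082, so a change of PAOX was not detectable at this depth. A neighbouring gene on the same strand, ENSG00000254536, overlaps the end of PAOX and had 62 to 93 counts.

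SAT1 is known for an alternative exon whose inclusion gives a transcript that is not translated into the full enzyme, and polyamines favour its skipping. The exon listed in the FPKM files lies at chrX:23784294-23784403 (plus strand, GRCh38) and has 110 bases. It is printed from the 1 GENCODE 29 transcript that holds it, with the first stop codon in the SAT1 reading frame in capitals.

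SAT1 alternative exon: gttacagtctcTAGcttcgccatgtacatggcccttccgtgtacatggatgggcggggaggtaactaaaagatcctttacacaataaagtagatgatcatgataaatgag

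With the exon, the reading frame ends after 71 codons, against 171 codons without it. Inclusion, the FPKM with the exon over the FPKM with and without it, was 12.6% and 13.1% in the shControl libraries. It was 8.21% and 0.377% in the shNeuroD1 libraries. Both knockdown libraries were below both controls, but they differed from each other by more than the first of them differed from the controls. The FPKM that included the exon was 0.382 and 0.333 in shControl against 0.392 and 0.0147 in shNeuroD1, while the FPKM that skipped it was 2.65 and 2.21 against 4.39 and 3.88. The skipping form was thus higher in both knockdown libraries, and the including form was low in 1 of them. Inclusion was not tested. The smallest exact two-sided permutation p for 2 against 2 libraries is 0.333, and the number of reads behind each FPKM is not given. In AMD1 an exon of 87 bases was included at 99.6% and 99.3% in shControl and at 99.4% and 95.8% in shNeuroD1, with 1 knockdown library apart.

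Levels of different genes were compared per length, as CPM per kilobase of exon. In shControl the order by mean was ODC1 (176), OAZ1 (111), SMS (77.9), AZIN1 (47.1), AMD1 (28.6), OAZ2 (17.8), SRM (16.2), SAT1 (3.88), SMOX (3.09) and PAOX (0.302). No neighbours in this order overlapped within shControl, but OAZ2 (17.2 and 18.4) lay close to SRM (15.8 and 16.6), and SAT1 (4.43 and 3.33) close to SMOX (3.22 and 2.95), with gaps smaller than the SD of the higher gene. In shNeuroD1 the means were 109 for ODC1, 108 for SMS, 79.6 for OAZ1, 46.4 for AZIN1, 24.0 for AMD1, 20.5 for OAZ2, 18.3 for SRM, 5.29 for SAT1, 2.16 for SMOX and 0.563 for PAOX. By this measure SMS stood above OAZ1, and its libraries at 109.7 and 106 overlapped those of ODC1 at 109.8 and 107. By FPKM only 1 of the 2 shNeuroD1 libraries had SMS level with ODC1, with SMS at 52.1 and 95.4 FPKM against 94.3 and 92.5 FPKM for ODC1. Exon lengths here are unions over all annotated transcripts, which lowers the values of genes with long alternative ends. For OAZ1 the union is 3436 bases, most of the gene at chr19:2269509-2273490, so its value per kilobase may be too low. OAZ1 has no FPKM, so its place beside ODC1 and SMS could not be checked. By FPKM in shControl, OAZ2 moved from place 5 to place 3 among the 8 listed members, AZIN1 from 3 to 4 and AMD1 from 4 to 5.

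**Figure D3:**
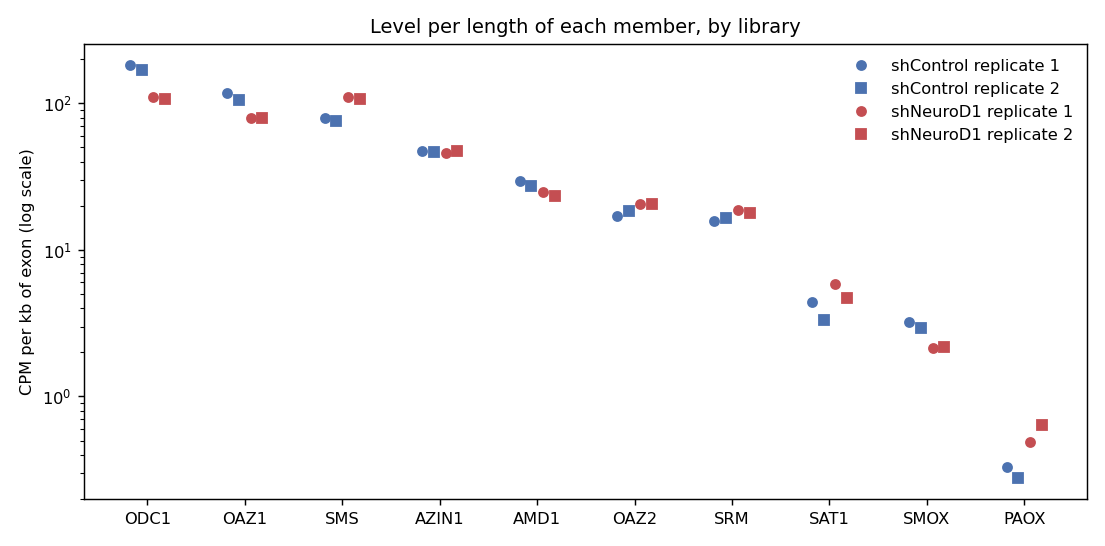
CPM per kilobase of exon (y axis, log scale) of each polyamine gene (x axis, ordered by the shControl mean) in every library, circles for replicate 1 and squares for replicate 2. ODC1 leads in shControl at a mean of 176, and in shNeuroD1 ODC1 and SMS stand together at 109 and 108. The place of OAZ1 rests on a union exon length of 3436 bases.

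Ratios within a library do not depend on the scaling between libraries, and they are given as descriptions with no test. Their size does depend on the union exon lengths, that of OAZ1 included. The ratio of ODC1 to the summed antizymes was 1.36 in both shControl libraries and 1.10 and 1.07 in shNeuroD1. The ratio of OAZ1 to OAZ2 was 6.85 and 5.74 in shControl against 3.83 and 3.92 in shNeuroD1. AZIN1 relative to the summed antizymes went from 0.352 and 0.378 to 0.459 and 0.468. In each of these ratios the 2 groups stood apart. ODC1 fell more than the antizymes together, and AZIN1, close to its control level, came to stand higher relative to them. SMS relative to ODC1 was 0.434 and 0.452 in shControl against 0.999 and 0.989 in shNeuroD1. SMS relative to SRM was 5.05 and 4.60 in shControl against 5.88 and 5.94 in shNeuroD1. ODC1 relative to AMD1 was 6.19 and 6.13 in shControl against 4.43 and 4.63 in shNeuroD1. SAT1 relative to SMOX was 1.37 and 1.13 in shControl against 2.73 and 2.17 in shNeuroD1.

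**Figure D4:**
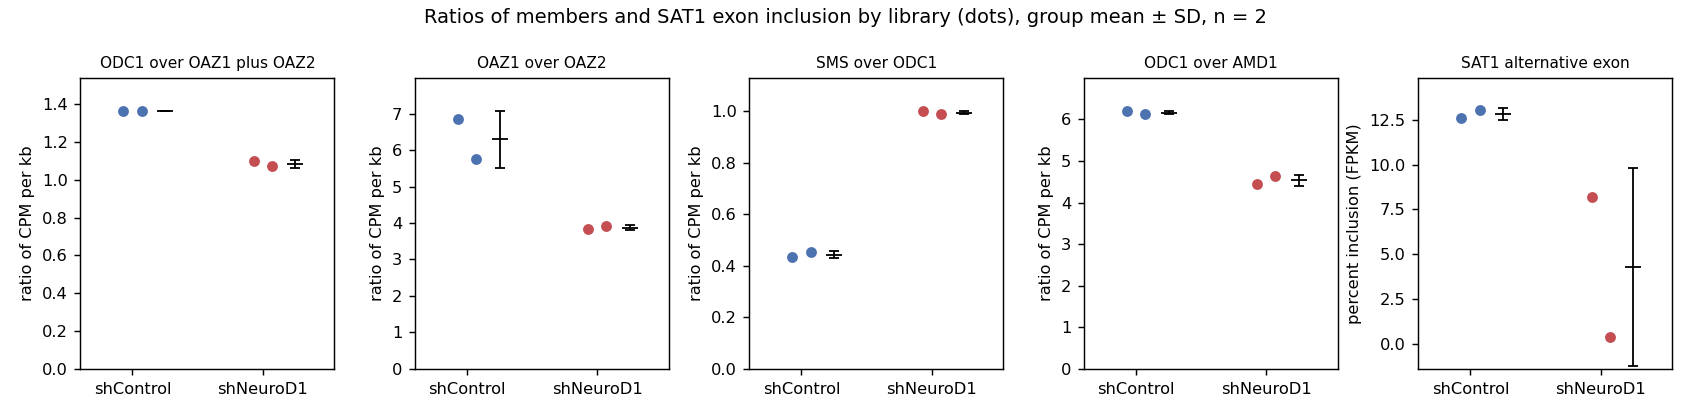
Ratios of CPM per kilobase between polyamine genes (first 4 panels) and percent inclusion of the SAT1 alternative exon by FPKM (last panel) in each library (dots), with group mean and SD, n = 2. SMS over ODC1 goes from 0.434 and 0.452 to 0.999 and 0.989, and the SAT1 exon panel shows the 2 shNeuroD1 libraries far apart at 8.21% and 0.377%.

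Around the 10 members, 42 genes that supply, move or use polyamines were listed, of which 32 passed the filter on low counts. By edgeR 9 were lower, 10 were higher and 13 were not called, with a median log2 fold change of 0.017. Over all genes tested 28.2% were lower and 26.8% higher, so these counts are near the background. With a change beyond 1 on the log2 scale as well, 1 was lower and 3 were higher, where 13.9% of all genes tested passed in either direction. The counts by role that follow are small and say nothing beyond these shares. The 10 genes that did not pass the filter had at most 9 counts in any library.

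**Figure D5:**
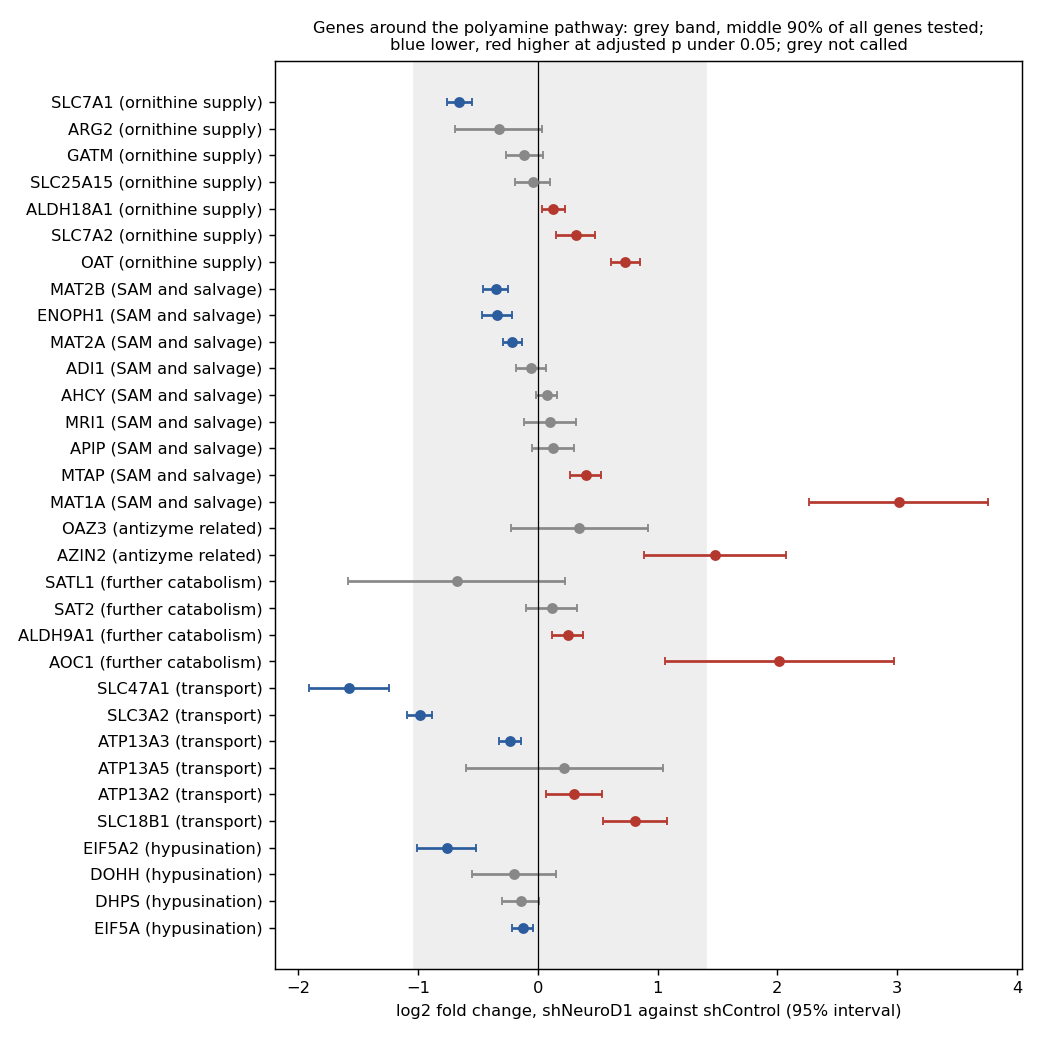
Log2 fold change (x axis, shNeuroD1 against shControl) with its 95% interval for the 32 tested genes around the polyamine pathway, grouped by role (y axis). Blue marks genes called lower, red higher and grey not called, and the grey band holds the middle 90% of all genes tested. MAT1A at 3.01, AOC1 at 2.02 and AZIN2 at 1.48 lie above the band and SLC47A1 at -1.58 below it.

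Of 7 tested ornithine supply genes 3 were called higher and 1 lower (26.8% and 28.2% over all genes). OAT, the mitochondrial aminotransferase between ornithine and glutamate semialdehyde, rose from 51.9 and 54.0 CPM to 85.3 and 90.6 CPM (log2 fold change 0.73, SE 0.059, edgeR adjusted p = 3.4e-12). SLC7A1, the cationic amino acid carrier that brings in arginine, fell from 182 and 203 CPM to 121 and 124 CPM (-0.65, SE 0.051, adjusted p = 1.1e-12). SLC7A2, a related carrier, rose at a lower level, from 28.1 and 32.2 CPM to 36.6 and 38.6 CPM (0.32, adjusted p = 0.0014, but 0.21 with an adjusted p of 0.105 without shControl replicate 1). ALDH18A1, which makes the semialdehyde from glutamate, had a value of 0.13 (adjusted p = 0.018) that did not pass in DESeq2 (adjusted p = 0.103) or without a filter on low counts (0.075), nor without shControl replicate 2 (0.097), shNeuroD1 replicate 1 (0.145) or shNeuroD1 replicate 2 (0.137). ARG2 and GATM were not called.

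Of 9 genes of S-adenosylmethionine supply and methionine salvage 3 were called lower and 2 higher (28.2% and 26.8% over all genes). MAT2A, the methionine adenosyltransferase of most tissues, fell from 1044 and 989 CPM to 871 and 883 CPM (-0.21, SE 0.039, adjusted p = 2.6e-05). Its regulatory subunit MAT2B fell from 106 and 107 CPM to 83.7 and 83.3 CPM (-0.35, SE 0.052, adjusted p = 9.0e-07). The liver form MAT1A went from 5 and 9 counts in the control libraries to 58 and 56 (3.01, SE 0.367, adjusted p = 2.2e-08). It remained far lower per length than MAT2A in every library. MTAP, which clears the methylthioadenosine left by SRM and SMS, rose from 48.6 and 47.2 CPM to 62.1 and 64.3 CPM (0.40, SE 0.063, adjusted p = 2.4e-06). ENOPH1, a later enzyme of the same salvage route, fell from 80.8 and 74.4 CPM to 60.5 and 62.1 CPM (-0.34, SE 0.060, adjusted p = 1.4e-05).

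AZIN2, another antizyme inhibitor expressed mainly in brain and testis, went from 22 and 19 counts to 64 and 50 (1.48, SE 0.290, edgeR adjusted p = 6.2e-05), while OAZ3 was not called. Of 4 further catabolic genes 2 were called higher (26.8% over all genes). AOC1, a secreted diamine oxidase, went from 5 and 7 counts to 21 and 28 (2.02, SE 0.469, adjusted p = 5.0e-04), and without shControl replicate 1 the value was 1.84 with an adjusted p of 0.055. ALDH9A1, which oxidises aminobutyraldehyde, had a value of 0.25 (adjusted p = 0.0015) that did not pass without shControl replicate 1 (0.066) or shControl replicate 2 (0.053).

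Of 6 tested transport genes 3 were called lower and 2 higher, against 28.2% and 26.8% over all genes. SLC3A2, the heavy chain shared by several amino acid exchangers and tied to polyamine export, fell from 155.6 and 155 CPM to 78.2 and 78.7 CPM (-0.99, SE 0.050, edgeR adjusted p = 2.9e-17). SLC47A1, an organic cation exporter, fell from 18.6 and 15.8 CPM to 7.23 and 4.27 CPM (-1.58, SE 0.163, adjusted p = 7.1e-10). ATP13A3, a P-type ATPase for polyamine uptake, fell from 209.8 and 209.5 CPM to 173 and 184 CPM (-0.23, SE 0.046, adjusted p = 6.7e-05). SLC18B1, a vesicular polyamine carrier, rose from 9.29 and 9.01 CPM to 17.6 and 14.6 CPM (0.81, SE 0.132, adjusted p = 3.9e-06). ATP13A2, the lysosomal polyamine exporter, had a value of 0.30 (adjusted p = 0.025) that did not pass in DESeq2 (0.158), without a filter on low counts (0.155), or without shControl replicate 1 (0.13, adjusted p = 0.305), shNeuroD1 replicate 1 (0.072) or shNeuroD1 replicate 2 (0.058).

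Spermidine is also the source of hypusine, a modified lysine found in the translation factor eIF5A. Of the 4 genes of this step 2 were called lower (28.2% over all genes), and 1 of these calls, EIF5A, was lost under several alternatives. EIF5A2, the less abundant form of the factor, fell from 18.4 and 19.1 CPM to 12.4 and 9.79 CPM (-0.76, SE 0.122, edgeR adjusted p = 3.3e-06). EIF5A had 428 and 423 CPM in shControl and 404 and 376 CPM in shNeuroD1 (-0.13, adjusted p = 0.012). That call did not hold with library size scaling (-0.014, adjusted p = 0.797) or without shControl replicate 1 (0.147), shControl replicate 2 (0.116) or shNeuroD1 replicate 2 (0.378). The modifying enzymes DHPS and DOHH were not called.

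The genes whose pattern over the 4 libraries was nearest to that of ODC1 were PARP2, HMMR, GNG5, RAVER2 and STK38L, by Euclidean distance between centred log2 CPM values among the 10560 genes that averaged 10 CPM or more. Their distances ran from 0.0146 to 0.0347 and their log2 fold changes from -0.72 to -0.68. PARP2, the nearest, stood at 73.1 and 67.5 CPM in shControl and at 43.9 and 43.4 CPM in shNeuroD1. With 4 libraries in 2 groups, this likeness rests on the fold change and on the small gap between the shControl libraries. The 9 annotated pseudogenes of AMD1, OAZ1, SMS and SRM had at most 6 counts in any library.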

How the data were processed

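RNA-seq of poly(A) RNA from 4 IMR-32 libraries was used, 2 shControl and 2 shNeuroD1. Per the submitters' processing notes, reads were trimmed with cutadapt (1.9.1), aligned to hg38 with HISAT2 (2.0.1) and counted with HTSeq (0.6.1), and DESeq2 was used. The use of strand in counting is not given in the sources used here. The authors deposited raw counts per gene, and for each library FPKM of transcript starts, ends and skipped exons, whose depth is unknown. Total counts were 14665210 to 16482463 per library.

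Members and lists were chosen with earlier results of these data known. Counts were fitted as deposited over the whole table in edgeR (4.0.16, R 4.3.3) with the quasi-likelihood F test (two-sided), TMM scaling and filterByExpr (minimum count 10), with Benjamini-Hochberg adjustment over 17537 genes. A gene was called at an adjusted p under 0.05. Means are given ± SD over 2 libraries and SE is that of the log2 fold change. CPM per kilobase used the union exon length in GENCODE 29. Gene FPKM were summed over starts. Exon inclusion was the FPKM with the exon over the sum of FPKM with and without it. The procedure was tested on simulated data in which few genes changed, by more than any called member did here. That test does not cover changes as small as those of the members. Named genes were all 10 members, NEUROD1, MYCN, called genes of the wider list (at most 3 per direction in each role), overlapping genes, pseudogenes and the 5 genes nearest to ODC1. Genes outside these (ARG2, GATM, OAZ3, DHPS, DOHH) were named after their values were seen. Alternatives were DESeq2 (1.42.0), its size factors, library size alone, no filter, a mean of at least 1 CPM, a replicate block, limma (3.58.1) on log2(FPKM + 1) and log2(FPKM + 0.1) (genes averaging 1 FPKM or more), and leaving out each library.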

Additional observations from a re-analysis of the deposited data

How the results depend on the processing

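Over all alternatives, ODC1, AMD1, SMS, SAT1, OAZ1, OAZ2, SMOX and PAOX kept the sign of their log2 fold change, and SRM and AZIN1 did not. The fits of limma on FPKM changed most. With pseudocounts of 1 and 0.1 none of the 8 listed members passed, so 0 were lower and 0 higher (3 had an unadjusted p under 0.05), and the wider list had 1 lower and 0 higher of 22 genes. The log2 fold changes were -0.58 and -0.59 for ODC1, -0.14 and -0.15 for AMD1, -0.090 and -0.096 for SRM (reversed), 0.030 and 0.029 for SMS, 0.52 and 0.62 for SAT1, 0.29 and 0.30 for OAZ2, 0.53 and 0.55 for AZIN1 (reversed), -0.48 and -0.70 for SMOX, 0.13 and 0.13 for MYCN (reversed), and -0.96 and -1.08 for NEUROD1, which was not called either (adjusted p = 0.291 and 0.288). These fits called 2.76% and 2.55% of all genes lower and 2.44% and 2.04% higher. OAZ1 and PAOX had no value there. Why these fits differ from the counts was not tested. With library size alone SRM passed at 0.29, AZIN1 was 0.092 and MYCN 0.11 (both reversed). With a mean of at least 1 CPM SRM passed at 0.19, MYCN was 0.0059 (reversed) and PAOX was not tested. SAT1 lost its call without a filter (0.44) and in DESeq2 (0.45), as did SMOX in DESeq2 (-0.52).

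Leaving out each library in turn, where the lone library is assumed to vary like the other group, gave -0.77 to -0.64 for ODC1, -0.32 to -0.21 for AMD1, 0.13 to 0.21 for SRM, 0.43 to 0.49 for SMS, 0.25 to 0.66 for SAT1, -0.57 to -0.42 for OAZ1, 0.15 to 0.25 for OAZ2, -0.039 to -0.0036 for AZIN1, -0.59 to -0.46 for SMOX, 0.70 to 1.06 for PAOX and -0.046 to 0.011 for MYCN. Members lower numbered 2 to 4 and higher 2 to 3, and the wider list 8 to 11 lower and 6 to 8 higher. The counts of 2 lower members and of 6 came without shControl replicate 1, as did the reversed MYCN value. With a log2 fold change beyond 1 as well, 0 members were lower and 0 higher, against 1 and 3 of the wider list. With the replicate number as a block, ODC1 was at -0.70 and no call changed among the members and the genes named around them, and the numbers do not pair the libraries (correlation of deviations 0.027 over 10560 genes). The precision is limited by 2 libraries per group, and for SAT1, SMOX and PAOX by counts of at most 222.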
